A study of Mus musculus with 2 samples.

Results

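The genes described here build cholesterol and fatty acids or set how strongly those pathways are switched on. The set was given as a list of names, drawn up with earlier results of these data known, and all 33 genes were listed in both libraries, out of 27995 genes that the libraries shared. They were divided into a sterol arm of 18 genes, a group of 6 regulators and sterol carriers, and a fatty acid arm of 9 genes.

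The cells were stromal vascular fractions of wild-type C57BL/6N mice aged 8 to 12 weeks, taken from pooled inguinal white (iWAT) or interscapular brown (iBAT) fat and grown in high-glucose medium to 80% confluency. The stromal vascular fraction is what is left of fat tissue after collagenase digestion and removal of the floating adipocytes, and it is rich in preadipocytes. The submitters list an untreated culture and cultures given FGF1, FGF2 or FGF8 for 48 h at 5.5 nM. The published methods name vehicle, FGF1 and FGF2 only and another age range. The 4 treatments of a depot were tagged and merged into 1 BD Rhapsody library, and the files used here do not link a cell to its tag, so no treatment was compared with another and each depot was 1 sample without a replicate. No difference between the libraries could therefore be tested, and every interval given is a 95% interval that covers counting error only.

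The iWAT library held 29744 cells after filtering, with a median of 16204 unique molecular identifiers (UMIs, each standing for 1 captured transcript) per cell, and the iBAT library held 28215 cells with a median of 27235. The libraries also differed in sex-linked transcripts, with Xist at 345 CPM (UMIs of a gene per 1000000 UMIs of the cells) in iWAT and 0.0505 in iBAT, and Ddx3y at 1.20 and 81.9 CPM. Depot, sex of the mice and library cannot be told apart in what follows. The libraries listed 8 cell indices in common.

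Cholesterol is made from acetyl-CoA through mevalonate, squalene and lanosterol, and fatty acids are made from the same acetyl-CoA by carboxylation, chain building, elongation and desaturation. The SREBP transcription factors, encoded by Srebf1 and Srebf2, are held in the endoplasmic reticulum by the Insig proteins and carried to the Golgi by Scap when sterols run low. SREBP-2 acts mainly on sterol genes and SREBP-1c mainly on fatty acid genes. In fat, the fatty acid arm is a hallmark of the maturing adipocyte, whereas dividing and resting stromal cells need both pathways for membranes.

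All 33 genes were detected in both libraries. Summed UMIs of the sterol arm came to 1224 CPM (1221 to 1227) for iWAT and 1068 CPM (1066 to 1070) for iBAT, a ratio of iBAT over iWAT of 0.872 (0.870 to 0.875). The regulators and sterol carriers summed to 425 and 408 CPM. Those of the fatty acid arm came to 1736 CPM (1732 to 1739) for iWAT and 948 CPM (946 to 950) for iBAT, a ratio of 0.546 (0.545 to 0.548). These sums hold genes of unequal level, and single genes of each arm lay on both sides of their arm's ratio.

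**Figure D1:**
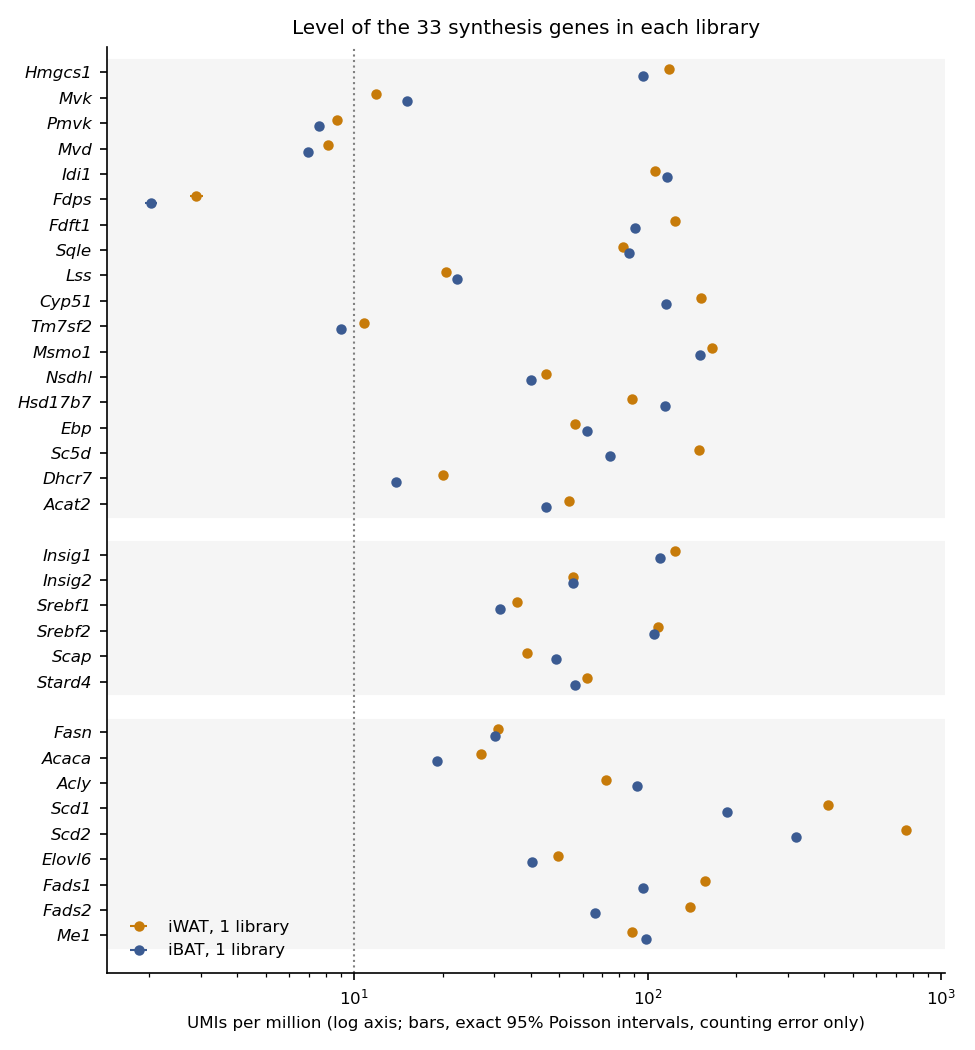
Level of each of the 33 genes in CPM on a log axis, with 1 point per library (iWAT and iBAT) and exact 95% Poisson intervals, which are mostly narrower than the points. The dotted line marks 10 CPM. Scd1, Scd2, Fads2 and Sc5d show the widest gaps, all with the iWAT point to the right.

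Genes at 10 CPM or more in at least 1 library were counted, which left 9081 genes. Over all of them the median log2 ratio of iBAT over iWAT was 0.05, with 9.47% being 1.5-fold or more higher in iBAT and 8.91% being 1.5-fold or more higher in iWAT. Of these 9081 genes 5125 (56.4%) were higher in iBAT by any amount and 3956 were higher in iWAT. Of the 33 genes 30 were counted, 0 were 1.5-fold or more higher in iBAT and 5 were 1.5-fold or more higher in iWAT. Pmvk, Mvd and Fdps stayed under 10 CPM in both.

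In the sterol arm 15 genes were counted, 6 higher in iBAT and 9 higher in iWAT, with a median log2 ratio of -0.17. Tm7sf2 reached 10 CPM only in iWAT, so that the filter fixed its direction, and of the other 14 genes 6 were higher in iBAT and 8 in iWAT. Hmgcs1, which makes HMG-CoA at the start of the pathway, stood at 118 CPM for iWAT and 96.1 CPM for iBAT. Idi1, the isopentenyl diphosphate isomerase, stood at 106 and 116 CPM. Fdft1, the squalene synthase, stood at 124 and 90.3 CPM.

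These early steps thus differed by less than 1.5-fold, and not all in 1 direction. Among the later enzymes, Sqle (squalene epoxidase) was at 82.2 CPM for iWAT and 86.6 CPM for iBAT, and Cyp51, the lanosterol 14-demethylase, was at 152 and 115 CPM. Msmo1, the sterol C4-methyl oxidase, was at 166 and 151 CPM.

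Sc5d, the lathosterol desaturase, was the only sterol gene past 1.5-fold, with 150 CPM (149 to 151) for iWAT and 74.2 CPM (73.6 to 74.8) for iBAT. Its ratio was 0.495 (0.490 to 0.501), far from those of Ebp (56.4 and 62.0 CPM) and Dhcr7 (20.1 and 13.9 CPM), which act directly before and after it. Hsd17b7, a 3-ketosteroid reductase of the same late pathway, leaned the other way with 88.4 and 114 CPM.

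The other sterol genes ranged from 2.90 CPM for iWAT and 2.04 CPM for iBAT for Fdps, the farnesyl diphosphate synthase, to 53.8 and 45.0 CPM for Acat2. How reads that match several loci were handled is not given in the sources used here, so Fdps, which has processed pseudogenes, and Acat2, which has a near-identical neighbour, are uncertain. Tm7sf2 shares 10.8% of its annotated exon bases with Vps51 on the same strand, and Me1, Cyp51, Fdft1 and Mvd overlap genes of the opposite strand over 35.5%, 28.3%, 24.8% and 20.5%, so some of their UMIs may belong to the other gene. Mvk and Pmvk, the kinases of mevalonate and phosphomevalonate, were at 11.9 and 8.71 CPM in iWAT and at 15.2 and 7.61 CPM in iBAT. Mvd, the decarboxylase that follows them, was at 8.12 and 6.99 CPM. Lss, which closes the sterol ring, was at 20.6 and 22.3 CPM, Tm7sf2, a sterol C14-reductase, at 10.8 and 9.01 CPM, and Nsdhl, the C4-decarboxylating dehydrogenase, at 45.1 and 39.96 CPM.

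None of the 6 regulators and sterol carriers reached 1.5-fold between the libraries, and their median log2 ratio was -0.09. Srebf2 stood at 109 CPM for iWAT and 105 CPM for iBAT, and Srebf1 at 35.8 and 31.3 CPM. Insig1, which encodes an Insig retention protein and is itself an SREBP target, stood at 124 and 110 CPM, and Insig2 at 55.6 and 55.5 CPM. Scap stood at 38.8 and 48.8 CPM, and Stard4, a cytosolic cholesterol carrier, at 62.1 and 56.7 CPM.

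The fatty acid arm had a median log2 ratio of -0.50, with 7 of 9 genes higher in iWAT and 2 higher in iBAT, beside 56.4% of all genes counted being higher in iBAT. The genes past 1.5-fold were all desaturases. Scd1, a stearoyl-CoA desaturase (chr19:44382894-44399154 in GRCm39), stood at 412 CPM (410 to 414) for iWAT and 186 CPM (185 to 187) for iBAT. Its neighbour Scd2, another stearoyl-CoA desaturase (chr19:44281613-44295303), stood at 760 CPM (757 to 762) and 319 CPM (318 to 320).

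Both stearoyl-CoA desaturases were thus more than 2-fold higher in iWAT. Fads2, the delta-6 desaturase of polyunsaturated fatty acids, was at 140 CPM for iWAT and 65.9 CPM for iBAT, a ratio of 0.472 (0.467 to 0.477). Fads1, the delta-5 desaturase, was at 156 and 96.6 CPM, a ratio of 0.618 (0.612 to 0.624).

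The enzymes that build saturated chains differed by less than 1.5-fold, with Fasn nearly equal in the libraries and Acaca and Elovl6 lower in iBAT. Fasn, the fatty acid synthase, was at 31.0 CPM for iWAT and 30.3 CPM for iBAT, with a ratio of 0.976 (0.957 to 0.996). Acaca, the acetyl-CoA carboxylase, was at 27.1 and 19.2 CPM, a ratio of 0.707 (0.691 to 0.724), and Elovl6, the elongase of palmitate, was at 49.6 and 40.4 CPM. The suppliers of acetyl-CoA and NADPH leaned to iBAT, with Acly (ATP citrate lyase) at 72.0 and 91.9 CPM and Me1 (malic enzyme) at 88.6 and 98.4 CPM.

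The same 5 genes were past 1.5-fold when only Pdgfra-positive cells were taken (2 or more UMIs of Pdgfra, a receptor that marks preadipocytes and fibroblasts). In those cells Scd1 was at 470 CPM for iWAT and 165 CPM for iBAT, Scd2 at 822 and 323 CPM, and Sc5d at 162 and 76.3 CPM.

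A further 36 genes of sterol and lipid metabolism were examined, and 28 were counted. Among those 1.5-fold or more higher in iWAT, Slc25a1, the mitochondrial citrate carrier, stood at 150 and 99.4 CPM (iWAT and iBAT), and the acyl-CoA synthetases Acsl3 and Acsl4 at 45.5 and 215 CPM in iWAT and 27.5 and 142 CPM in iBAT. The sterol exporter Abcg1 stood at 11.1 and 4.02 CPM. Acsl1, the main acyl-CoA synthetase of adipocytes, was the 1 gene past 1.5-fold toward iBAT, at 6.79 and 15.2 CPM. Acsl1 reached 10 CPM only in iBAT and Abcg1 only in iWAT, so the filter fixed the direction of both. Of the 24 further genes at 10 CPM in both libraries, 0 were past 1.5-fold toward iBAT and 4 toward iWAT.

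Cells were next compared by marker, with 2 or more UMIs required. Pdgfra-positive cells numbered 10822 in iWAT and 23784 in iBAT, Epcam-positive cells 4493 and 3, Sox10-positive cells 1690 and 793, Ptprc-positive cells 126 and 189, and Adipoq-positive cells 3 and 110. Groups under 50 cells were not compared. A cell could carry several markers, and the comparison group was always the Pdgfra-positive cells without the marker in question. In iWAT 1486 of the 1690 Sox10-positive cells also carried Epcam, and their epithelial markers summed to 3719 CPM against 360 CPM for Schwann cell markers. They are therefore called Sox10-positive only. In iBAT the Sox10-positive cells had 1191 CPM of Schwann markers and 0.528 CPM of epithelial markers.

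**Figure D2:**
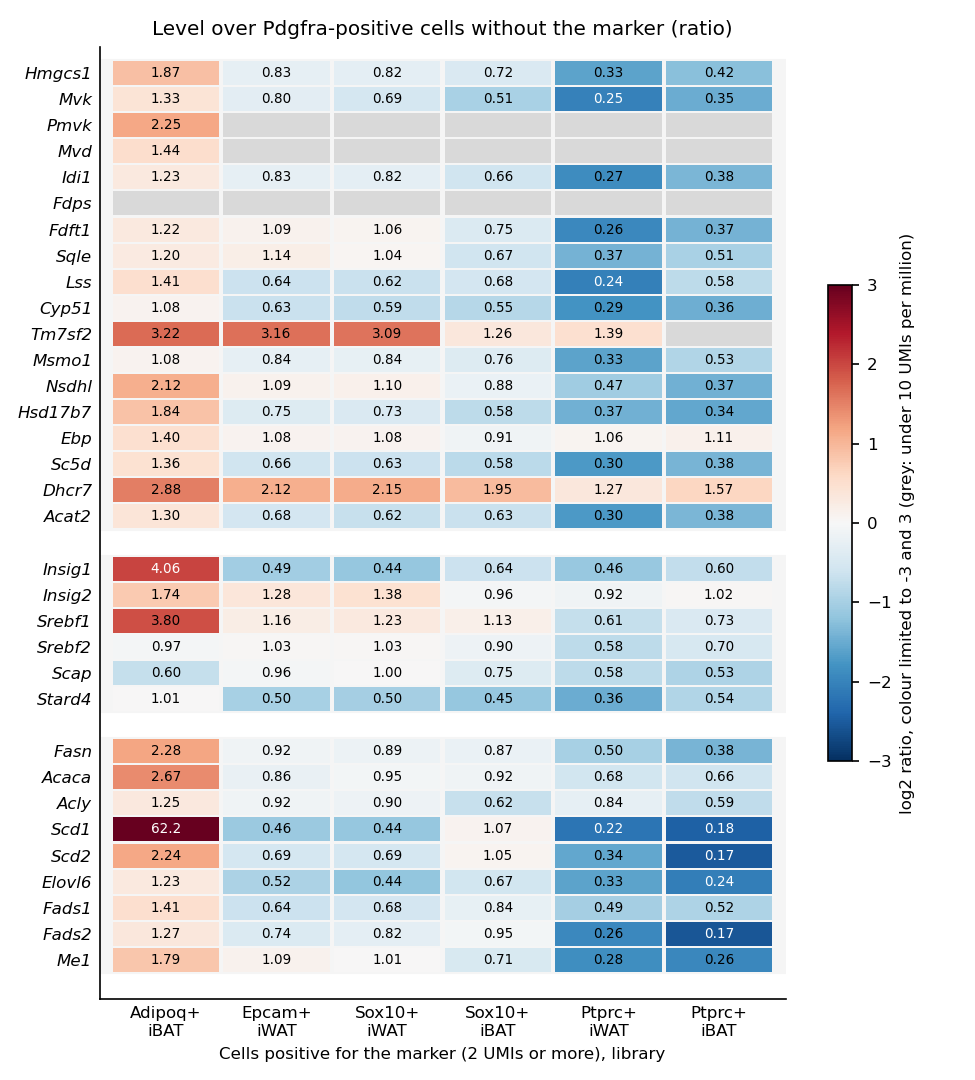
Ratio of each gene's level in marker-positive cells over Pdgfra-positive cells without that marker, with the group and library in columns, colour on a log2 scale and genes under 10 CPM in both groups in grey. The Ptprc columns are mostly blue (lower), the Adipoq column is mostly red (higher), and Scd1 in Adipoq-positive cells stands out at 62.2.

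Adipoq-positive cells of iBAT, the cells expressing the adiponectin gene of differentiated adipocytes, had the highest fatty acid arm of the groups compared, at 10836 CPM (10721 to 10951) against 924 CPM in the comparison group, a ratio of 11.7 (11.6 to 11.9). The ratio depended on how the cells were chosen, and was 4.88 with the markers at 1 UMI, 18.05 at 5 UMIs and 23.6 in cells with 1 marker only. Adipocyte markers summed to 18415 CPM in them and 429 CPM in the comparison group, and 75 of the 110 cells were also Pdgfra-positive. Mesenchymal markers summed to 6925 against 12734 CPM, cycling markers to 613 against 1251 CPM and mural markers to 116 against 24.9 CPM, and the part of these in the ratios was not tested. The groups had similar depth, with medians of 27327 and 28191 UMIs, and medians of 9.10% and 6.41% mitochondrial UMIs. All 9 fatty acid genes were higher, beside a median log2 ratio of -0.09 over all genes counted. Pmvk, Mvd and Tm7sf2 reached 10 CPM only in the Adipoq-positive cells, so that the filter fixed their direction. Of the other 14 sterol genes counted 14 were higher, and of the other 29 genes of the set 8 were 2-fold or more higher and 0 were 2-fold or more lower, beside 6.97% higher and 4.57% lower over all 9162 genes counted.

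Most of the fatty acid arm in these cells was Scd1, at 9421 CPM against 152 CPM, a ratio of 62.2 (61.4 to 63.0). Its level per cell ran from 39.7 CPM through a median of 2085 CPM to 67229 CPM, and 66 of the 110 cells were above 1000 CPM. In the comparison group the median was 125 CPM, and 53 of 23709 cells were above 1000 CPM. The 110 cells held 20.3% of all Scd1 UMIs of the library.

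Without Scd1 the arm was 1.83 times the comparison level. Acaca was at 51.2 against 19.2 CPM, Fasn at 69.8 against 30.7 CPM and Scd2 at 723 against 322 CPM, with ratios of 2.67 (2.27 to 3.11), 2.28 (1.98 to 2.60) and 2.24 (2.15 to 2.34). Me1 was 1.79-fold higher, and Acly, Elovl6, Fads1 and Fads2 lay between 1.23-fold and 1.41-fold.

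The sterol arm was at 1552 CPM against 1095 CPM, a ratio of 1.42 (1.38 to 1.46). Past 2-fold were Tm7sf2 at 3.22 (2.60 to 3.96) and Pmvk at 2.25 (1.69 to 2.94), both under 10 CPM in the comparison group, and Dhcr7 at 2.88 (2.39 to 3.44) and Nsdhl at 2.12 (1.88 to 2.39). Cyp51 and Msmo1 were at 1.08-fold with intervals that included 1.

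Among the regulators, Insig1 was at 454 CPM against 112 CPM, a ratio of 4.06 (3.85 to 4.27), and Srebf1, which encodes SREBP-1, was at 119 against 31.4 CPM, a ratio of 3.80 (3.42 to 4.20). Srebf2 was at 103 against 106 CPM, and its ratio of 0.967 had an interval of 0.865 to 1.08. Scap was lower, at 30.5 against 50.4 CPM. The excess was thus in Srebf1 and not in Srebf2, and in Insig1 more than in Insig2 (1.74-fold).

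Of the further pathway genes 32 were counted in this comparison, with 14 being 2-fold or more higher and 1 lower. Thrsp, Dgat2, Abcg1, Nr1h3 and Pcx reached 10 CPM only in the Adipoq-positive cells, so that the filter fixed their direction. Of the other 27 genes 9 were 2-fold or more higher and 1 lower, beside the 6.97% and 4.57% of all genes. Thrsp, a lipogenic nuclear protein, was represented by 32 UMIs in the 110 cells against 26 UMIs in the 23709 cells of the comparison group. Acsl1 was at 358 against 13.2 CPM, Gpam (the first enzyme of glycerolipid synthesis) at 231 against 17.1 CPM, and Dgat2, which makes triglyceride, at 83.9 against 5.69 CPM. Agpat2, Dgat1 and Lpin1, also of triglyceride synthesis, were 10.1-fold, 9.53-fold and 6.05-fold higher. Abcg1 and Abca1, which export cholesterol, were at 129 and 86.7 CPM against 2.89 and 16.9 CPM, and Nr1h3, which encodes the oxysterol receptor LXR-alpha, was at 28.0 against 2.34 CPM. Pcx, the pyruvate carboxylase, was 12.4-fold higher, and Acss2, Npc2 and Slc25a1 were 3.03-fold, 2.31-fold and 2.05-fold higher. Soat1, the sterol esterifying enzyme, was 2-fold or more lower at 102 against 209 CPM.

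**Figure D3:**
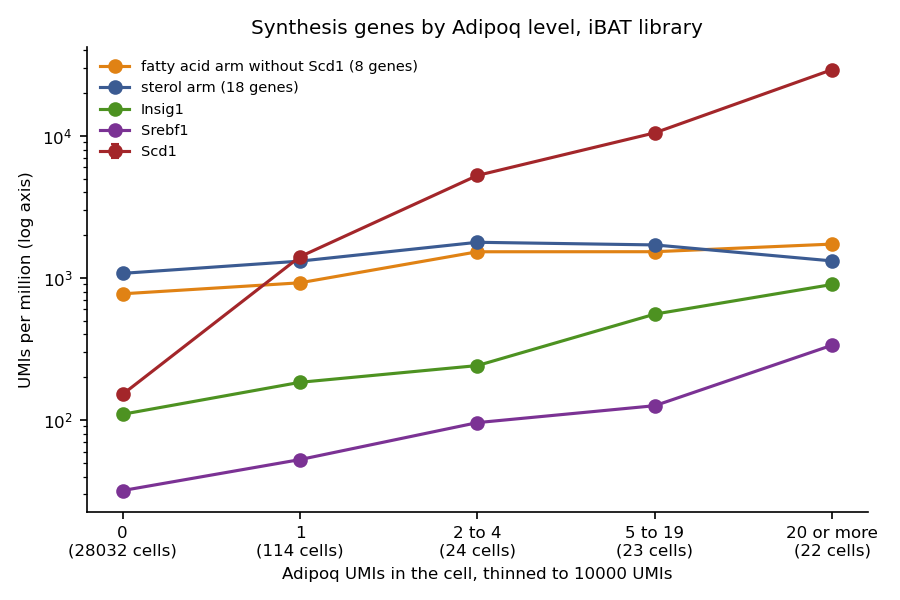
Levels in CPM (log axis) in iBAT cells thinned to 10000 UMIs, grouped by their Adipoq UMIs, with the cell number under each group. Scd1 runs from 152 to 29300 CPM, Insig1 and Srebf1 run upward with it, and the sterol arm stays between 1078 and 1783 CPM. Bars on Scd1 are exact 95% Poisson intervals and are smaller than the points.

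The fatty acid and sterol arms parted along the Adipoq level. With every iBAT cell thinned to 10000 UMIs, Scd1 was at 152 CPM in the 28032 cells without an Adipoq UMI, 1411 CPM in 114 cells with 1, 5271 CPM in 24 cells with 2 to 4, 10513 CPM in 23 cells with 5 to 19, and 29300 CPM in 22 cells with 20 or more. In the last group Scd1 alone took 2.93% of all UMIs. Each step was higher than the one before, with no overlap of the counting intervals.

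The rest of the fatty acid arm went from 773 CPM through 925, 1529 and 1530 to 1732 CPM over the same groups. The sterol arm went from 1078 CPM through 1314 to 1783 CPM and then back through 1709 to 1318 CPM. Insig1 went from 110 CPM to 900 CPM and Srebf1 from 31.9 CPM to 336 CPM, with every step upward. Pdgfra went from 267 CPM to 54.5 CPM, and Plin1, a lipid droplet protein, from 0.671 CPM to 932 CPM. The sterol arm was thus highest in cells with intermediate Adipoq, in groups of 22 to 24 cells. In iWAT, 20 cells had 1 Adipoq UMI and 1 cell had more, so the same series could not be made.

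Epcam-positive epithelial cells of iWAT had a sterol arm of 1114 CPM against 1288 CPM in Pdgfra-positive cells, a ratio of 0.865 (0.857 to 0.872), and a fatty acid arm of 1255 against 1894 CPM, a ratio of 0.663 (0.658 to 0.668). Of the 30 genes counted 2 were 2-fold or more higher and 2 lower, beside 9.4% and 10.2% of all genes counted. These cells were shallower, with a median of 11515 UMIs against 18914, and had 9.77% mitochondrial UMIs against 5.33%. Epithelial markers summed to 3596 against 21.8 CPM and mesenchymal markers to 6167 against 29777 CPM. Cycling markers summed to 526 against 1055 CPM and adipocyte markers to 61.6 against 314 CPM. The part of depth, mitochondrial share and these markers in the ratios was not tested. Tm7sf2 was at 26.0 against 8.23 CPM and Dhcr7 at 38.6 against 18.2 CPM. Insig1 was at 67.8 against 139 CPM and Scd1 at 218 against 473 CPM. Of the further genes, Acsl4 and Dgat1 were 2.56-fold and 2.03-fold higher and Soat1 was at 0.361 of the comparison level. Tm7sf2 reached 10 CPM only in the Epcam-positive cells, and the shares past 2-fold were no higher than those of all genes.

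The Sox10-positive cells of iWAT, most of which were Epcam-positive as well, gave nearly the same picture, with a sterol ratio of 0.840 and a fatty acid ratio of 0.661. In them 2 genes were 2-fold or more higher (Tm7sf2 and Dhcr7) and 4 lower (Insig1, Stard4, Scd1 and Elovl6), beside 10.7% and 11.9% of all genes. Tm7sf2 reached 10 CPM only in the Sox10-positive cells, and of the 28 genes at that level in both groups 1 was higher (Dhcr7) and 4 lower. In the 190 iWAT cells that carried Sox10 and none of the other 4 markers, Dhcr7 was at 0.917 of the comparison level. All Sox10-positive iWAT cells had a median of 11912 UMIs against 18915 and 9.67% mitochondrial UMIs against 5.35%. Cycling markers summed to 390 against 1052 CPM, adipocyte markers to 36.1 against 312 CPM and mesenchymal markers to 4256 against 29583 CPM. The part of these in the ratios was not tested.

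The Sox10-positive cells of iBAT, with Schwann markers, had a sterol arm of 770 against 1097 CPM, a ratio of 0.702 (0.689 to 0.715). Among sterol genes at 10 CPM or more in both groups 12 of 13 were lower, with a median ratio of 0.684. Over all genes counted the median log2 ratio was -0.02, and the share of all genes that were lower was not computed. These cells were shallower, with a median of 16360 UMIs against 28183, and had 7.88% mitochondrial UMIs against 6.40%, and with markers read after thinning to 5000 UMIs the ratio was 0.545. Of the 793 cells 161 were also Pdgfra-positive, and mesenchymal markers summed to 13521 against 12722 CPM. Adipocyte markers summed to 123 against 460 CPM, immune markers to 170 against 48.3 CPM and cycling markers to 1459 against 1248 CPM. The part of depth, mitochondrial share and these markers was not tested. Their fatty acid arm was at 867 against 940 CPM, a ratio of 0.922 (0.906 to 0.938). Stard4 was the only gene past 2-fold, at 26.2 against 58.6 CPM, so 0 of 30 genes were 2-fold or more higher and 1 lower, beside 7.33% and 7.98% of all genes. Dhcr7 was 1.95-fold higher. Among the further genes the cholesterol handling proteins Npc1 and Abca1 were 2.44-fold and 2.10-fold higher.

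Ptprc-positive immune cells had the lowest sterol and fatty acid arms of the groups compared, in both libraries. Their median depth was 12509 UMIs against 18916 in the comparison group in iWAT, and 23598 against 28182 in iBAT. Mitochondrial UMIs had medians of 6.47% against 5.35% in iWAT and 6.14% against 6.41% in iBAT. Of the Ptprc-positive cells 14 of 126 in iWAT and 35 of 189 in iBAT were also Pdgfra-positive. The part of depth in the ratios was not tested. Immune markers summed to 14560 CPM for iWAT and 15823 CPM for iBAT in these cells. Their adipocyte markers summed to 660 against 311 CPM in iWAT and 1953 against 458 CPM in iBAT, and the part of these in the values was not tested. The sterol arm was at 484 against 1287 CPM in iWAT, a ratio of 0.376 (0.350 to 0.403), and at 528 against 1097 CPM in iBAT, a ratio of 0.481 (0.462 to 0.5005). Fatty acid genes summed to 642 against 1887 CPM in iWAT, a ratio of 0.340 (0.320 to 0.361), and at 265 against 940 CPM in iBAT, a ratio of 0.282 (0.267 to 0.298). In the 152 iBAT cells that carried Ptprc and none of the other 4 markers, the sterol ratio was 0.407 and the fatty acid ratio 0.228. With the markers at 1 UMI both iBAT ratios were closer to the comparison level than in the main setting, as given in the closing section.

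In iWAT 21 of 30 genes counted were 2-fold or more lower in Ptprc-positive cells and 0 higher, beside 15.9% lower and 14.6% higher over all genes. In iBAT 15 of 29 were lower and 0 higher, beside 16.7% and 12.2%. Mvk in both libraries and Lss in iWAT reached 10 CPM only in the comparison group. Among the genes at that level in both groups 19 of 27 were 2-fold or more lower in iWAT and 14 of 28 in iBAT, with 10 of 12 and 8 of 13 of the sterol genes. Cyp51 was at 47.2 against 164 CPM in iWAT and 43.1 against 119 CPM in iBAT, and Idi1 at 30.6 against 114 CPM and 46.1 against 120 CPM. Scd2 was at 278 against 822 CPM in iWAT and 56.5 against 324 CPM in iBAT.

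The sterol genes at 10 CPM or more in both groups that were not lower were Ebp and Dhcr7. Dhcr7 had a ratio of 1.27 (0.898 to 1.75) in iWAT and 1.57 (1.27 to 1.91) in iBAT, and the intervals of Ebp included 1 in both. Tm7sf2 was counted in iWAT only through the Ptprc-positive cells, at 11.6 against 8.38 CPM, and its interval of 0.834 to 2.17 also included 1. The further genes were found on both sides. The exporters and endosomal cholesterol genes stood higher, with Abca1 at 301 against 22.5 CPM in iWAT and 93.2 against 17.0 CPM in iBAT, Abcg1 at 85.7 against 11.6 CPM and 58.4 against 3.11 CPM, and Npc1 at 102 against 42.4 CPM and 158 against 38.2 CPM. Acsl1 was also past 2-fold higher in both libraries (5.52-fold and 4.62-fold), with Lpin1 in iWAT and Nr1h3 in iBAT, and Fads3 and Acsl3 were past 2-fold lower in both, with Slc25a1 in iWAT and Aacs, Acss2 and Gpam in iBAT. Acsl1 and Lpin1 in iWAT and Abcg1 and Nr1h3 in iBAT reached 10 CPM only in the Ptprc-positive cells, and Acss2 and Gpam in iBAT only in the comparison group, so that the filter fixed their direction. Free RNA from the stromal cells adds to the counts of every cell, and its share in these levels was not tested.

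Within the Pdgfra-positive cells the genes were next described by the cell's own Hmgcs1 level. Cells were thinned to 10000 UMIs, and cells with 3 or more Hmgcs1 UMIs (1774 in iWAT, 3031 in iBAT) were set against cells with 0 (3902 and 11722). Over all genes counted the median log2 ratio was 0.01 in iWAT and 0.02 in iBAT, and 0.827% and 2.68% of genes were 1.5-fold or more higher. Pmvk, Mvd and Tm7sf2, and in iBAT also Dhcr7, reached 10 CPM only in the Hmgcs1-high cells, so that the filter fixed their direction. Of the other sterol genes, 13 of 13 were higher in iWAT and 12 of 12 in iBAT, 11 of them 1.5-fold or more in each library, with median ratios of 1.93 and 2.65. Hmgcs1 itself was used for the split and is left out.

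**Figure D4:**
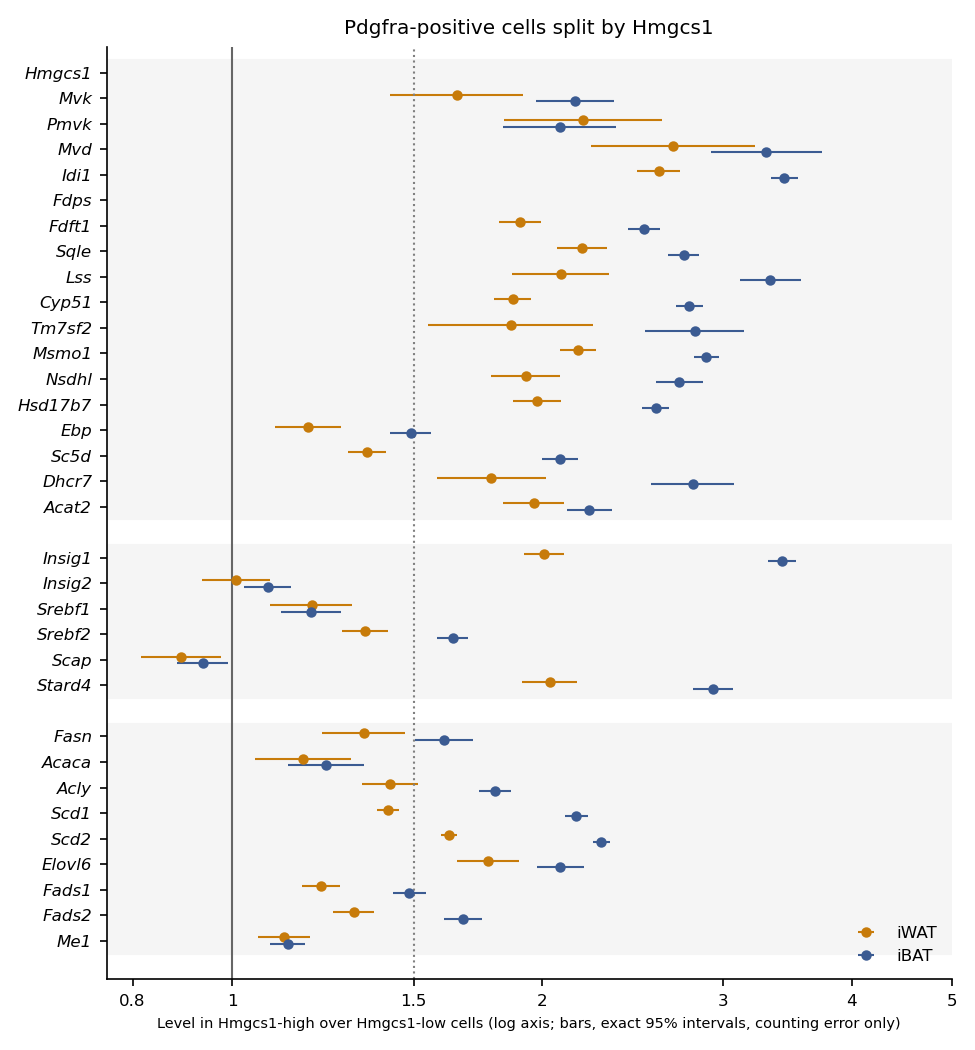
Ratio of each gene's level in Hmgcs1-high over Hmgcs1-low Pdgfra-positive cells on a log axis, with iWAT and iBAT points and exact 95% intervals for counting error. The dotted line marks 1.5. The sterol genes, Insig1 and Stard4 lie to the right, whereas Insig2 and Scap lie near 1. Hmgcs1 (used for the split) and Fdps (under 10 CPM) have no point.

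Idi1 was at 200 CPM against 77.1 CPM in iWAT and 264 against 76.8 CPM in iBAT, with ratios of 2.60 (2.47 to 2.73) and 3.44 (3.34 to 3.54). Mvd was at 15.1 against 5.64 CPM and 15.8 against 4.79 CPM. Sqle, Msmo1 and Lss were 2.19-fold, 2.17-fold and 2.08-fold higher in iWAT and 2.74-fold, 2.89-fold and 3.33-fold higher in iBAT. Ebp had the smallest ratio of the arm, 1.18 in iWAT and 1.49 in iBAT.

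The regulators did not move as a block. Insig1 was 2.01-fold (1.92 to 2.10) higher in iWAT and 3.42-fold (3.32 to 3.53) higher in iBAT, and Stard4 was 2.03-fold and 2.93-fold higher. Srebf2 was at 1.35 and 1.64. Insig2 was at 1.01 and 1.08, and Scap at 0.892 and 0.936.

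Fatty acid genes were also higher in Hmgcs1-high cells, 9 of 9 genes in both libraries, with 2 past 1.5-fold in iWAT and 6 in iBAT and median ratios of 1.34 and 1.68. With the cells thinned to 5000 UMIs all 9 were still higher, but 0 were past 1.5-fold in iWAT and 5 in iBAT. Elovl6 was at 1.77 and 2.08, Scd2 at 1.62 and 2.28, and Fasn at 1.34 and 1.61. Me1 was at 1.12 and 1.13.

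When 8337 genes were ranked by the smaller ratio of the libraries, 7 of the first 10 and 16 of the first 20 belonged to the 33 genes. Mvd and Pmvk among the first 10, and Tm7sf2 and Dhcr7 among the first 20, were under 10 CPM in the Hmgcs1-low cells of 1 or both libraries, so that the filter bore on their rank, and without them the counts were 5 and 12. Of the further pathway genes, Acss2, Acsl3, Lpin1 and Aacs were among the first 50, with Acss2 and Lpin1 under 10 CPM in the Hmgcs1-low cells of at least 1 library. Outside the pathway lists the 10 highest were Sfrp2, Cyp7b1, Sfrp1, Aldh1l1, Gas1, Ccn3, Sned1, Igsf10, Adamts5 and Ndrg1. Sfrp2 and Sfrp1, secreted Wnt modulators, were 3.38-fold and 1.79-fold higher in iWAT and 2.45-fold and 2.08-fold in iBAT. Cyp7b1, which hydroxylates oxysterols, was 2.19-fold and 2.41-fold higher. Sfrp2, Aldh1l1 and Igsf10 in iWAT and Cyp7b1 and Aldh1l1 in iBAT were likewise under 10 CPM in the Hmgcs1-low cells.

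**Figure D5:**
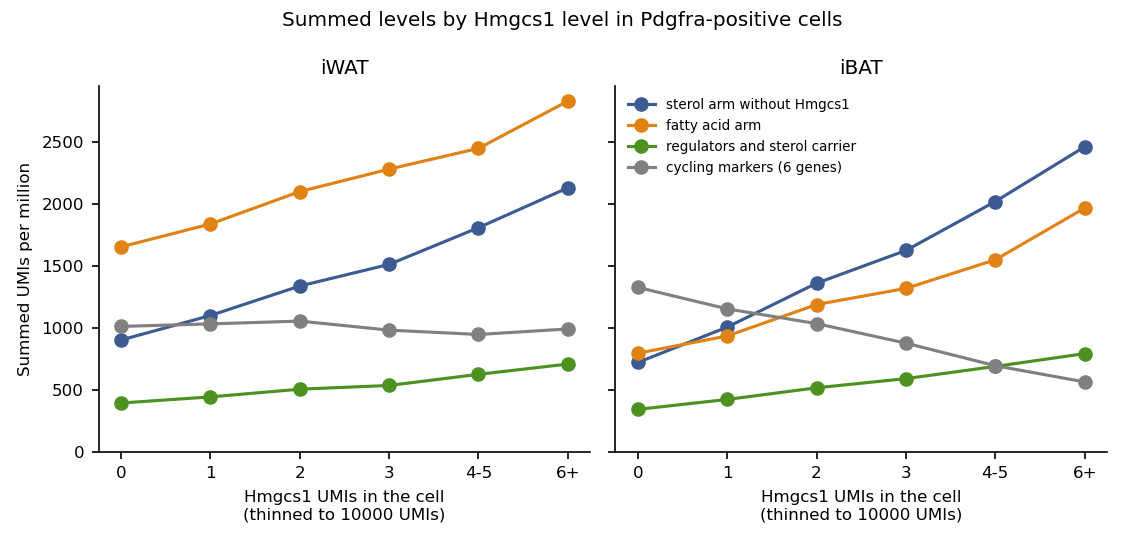
Summed CPM of the arms and of 6 cycling markers in Pdgfra-positive cells grouped by Hmgcs1 UMIs after thinning to 10000 UMIs, iWAT on the left and iBAT on the right. The sterol arm without Hmgcs1 climbs at every step in both, and the cycling markers decline at every step in iBAT.

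The relation was graded. From cells with 0 Hmgcs1 UMIs to cells with 6 or more, the sterol arm without Hmgcs1 went from 901 CPM through 1099, 1337, 1511 and 1808 to 2129 CPM in iWAT and from 720 CPM through 1005, 1359, 1624 and 2019 to 2460 CPM in iBAT. The fatty acid arm went from 1652 to 2829 CPM in iWAT and from 794 to 1966 CPM in iBAT. Both arms were higher at every step in both libraries.

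Other features moved along. The median depth of the cells before thinning went from 28900.5 to 24946 UMIs in iBAT and from 19583 to 18480 UMIs in iWAT. The 8 adipocyte markers went from 406 to 745 CPM in iBAT and from 289 to 365 CPM in iWAT. The 6 cycling markers went from 1326 to 563 CPM in iBAT and from 1011 to 990 CPM in iWAT, and the 8 mesenchymal markers from 12109 to 19409 CPM and from 27652 to 38135 CPM. Among cells with no UMI of Top2a or Mki67 the median sterol ratio was 2.02 in iWAT and 2.59 in iBAT, against 1.93 and 2.65 over all cells, over the same 13 and 12 genes at 10 CPM or more in both groups. The part of depth before thinning and of the mesenchymal and adipocyte markers was not tested.

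Upstream sequences of some genes of the Hmgcs1 split are shown as examples. Of these, Mvd and Tm7sf2 passed the filter only through the Hmgcs1-high cells. Most genes of the set with a window carry CCAAT, the letters that NF-Y, a partner of SREBP, is known to bind. The sterol element that SREBP binds was found in few. Insig2, at 1.01 and 1.08 in the split, holds CCAAT in a window, and Elovl6, at 1.77 and 2.08, does not. Whether CCAAT goes with the ratios was not tested. RefSeq promoter windows of 300 bases (250 before the start and 50 after, GRCm38.p6) were found for 26 of the 33 genes, with none for Fdps, Fdft1, Sqle, Stard4, Scd1, Scd2 and Fads1. Both strands were searched, and overlapping matches were allowed. The sterol element TCACNCCAC was in Hmgcs1 only, its first base at -137 from the start, and in 1.44% of 27025 genes with a window. The looser TCACNCNAC was also in Nsdhl, at -205, and in 3.15% of all genes.

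Capitals mark the sterol element and the NF-Y letters CCAAT (or ATTGG, the same letters on the other strand) in the bases directly before the start, for Hmgcs1 (chr13:119690151-119690350, plus strand), Idi1 (chr13:8885506-8885605, plus), Mvd (chr8:122443423-122443522, minus), Lss (chr10:76531505-76531604, plus), Msmo1 (chr8:64733579-64733678, minus), Tm7sf2 (chr19:6067851-6067950, minus) and, from the fatty acid arm, Fasn (chr11:120824548-120824647, minus). The Nsdhl line (chrX:72918276-72918364, plus) has only the looser sterol element in capitals.
Hmgcs1: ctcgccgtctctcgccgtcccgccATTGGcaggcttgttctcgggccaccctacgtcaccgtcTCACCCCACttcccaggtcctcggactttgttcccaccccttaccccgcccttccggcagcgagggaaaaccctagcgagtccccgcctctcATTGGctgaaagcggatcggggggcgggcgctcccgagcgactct
Idi1: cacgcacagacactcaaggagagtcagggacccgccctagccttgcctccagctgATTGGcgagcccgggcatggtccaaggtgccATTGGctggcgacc
Mvd: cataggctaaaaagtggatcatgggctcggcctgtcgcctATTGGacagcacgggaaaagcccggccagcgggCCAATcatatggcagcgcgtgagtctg
Lss: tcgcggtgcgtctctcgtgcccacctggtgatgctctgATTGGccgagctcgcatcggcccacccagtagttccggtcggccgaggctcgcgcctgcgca
Msmo1: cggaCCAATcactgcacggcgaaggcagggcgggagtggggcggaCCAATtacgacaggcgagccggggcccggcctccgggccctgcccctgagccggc
Tm7sf2: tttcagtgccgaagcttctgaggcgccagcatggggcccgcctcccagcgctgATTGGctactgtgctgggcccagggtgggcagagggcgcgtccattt
Fasn: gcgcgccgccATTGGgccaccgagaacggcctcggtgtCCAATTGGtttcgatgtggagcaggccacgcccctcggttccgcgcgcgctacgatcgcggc
Nsdhl: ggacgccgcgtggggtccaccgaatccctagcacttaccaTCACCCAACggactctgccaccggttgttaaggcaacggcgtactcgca

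CCAAT was found in 14 of the 15 sterol genes with a window, with Acat2 the exception, against 41.1% of all genes and 42.8% of 7227 genes at 10 CPM or more in these cells. In the fatty acid arm it was found in 3 of 6. The GC box GGGCGG was in 14 of the 15 sterol genes, against 38.2% of all genes and 72.7% of those expressed, and the E-box CACGTG in 3 of 15, against 8.09% and 12.4%. The shown stretches of Hmgcs1, Idi1, Mvd and Msmo1 each hold the CCAAT letters at more than 1 place, those of Lss and Tm7sf2 at 1. That of Fasn, from the fatty acid arm, holds them at 3 places, some of which overlap. These are matches of letters, and binding was not measured.

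A split by Fasn was made with a lower limit than the split by Hmgcs1, so the sizes of the ratios cannot be set against each other. Cells with 1 or more Fasn UMIs (2785 in iWAT, 6082 in iBAT) were set against cells with 0 (7266 and 17702), and 0% of genes were 1.5-fold or more higher in either library, none of the 33 among them. The sterol genes counted (15, with Pmvk in iWAT and Tm7sf2 in iBAT passing the filter only through the Fasn-high cells) and the 8 other fatty acid genes were higher in both, with median ratios of 1.16 and 1.23 for the sterol arm and 1.10 and 1.19 for the fatty acid arm, beside a median log2 ratio of 0.02 and 0.01 over all genes. Elovl6 had the largest ratio of the 33 genes in iWAT and iBAT, 1.28 and 1.39.

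Outside the lists the 10 highest in the Fasn split were Lrp8, Cdt1, Ung, Dtl, Tenm3, AU020206, Ccnd1, Hmgxb3, Slc5a3 and Cdc6. Lrp8, a lipoprotein receptor, was at 1.36 and 1.29. Cdt1, Ung, Dtl and Cdc6, which act in DNA replication or its licensing and repair, lay between 1.16 and 1.31. The summed cycling markers were lower in the Fasn-high cells, at 992 against 1025 CPM in iWAT and 1087 against 1204 CPM in iBAT.

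Cycling cells were compared with non-cycling cells among the thinned Pdgfra-positive cells (2 or more UMIs of Top2a and Mki67 together against 0). In iWAT, 4530 cycling and 4008 other cells had sterol arms of 1286 and 1258 CPM and fatty acid arms of 1900 and 1893 CPM. In iBAT, 10829 cycling and 9185 other cells had sterol arms of 980 and 1241 CPM, a ratio of 0.790, and fatty acid arms of 872 and 1062 CPM, a ratio of 0.821. The iWAT sums thus differed little. In iBAT the median log2 ratio was -0.36 for the sterol arm but -0.02 for the fatty acid arm, equal to the median of -0.02 over all genes, with 3 of 9 fatty acid genes higher, so the lower fatty acid sum lay in single genes, with Scd1 at 137 against 206 CPM, Scd2 at 287 against 383 CPM and Acly at 85.7 against 107 CPM. Of the 23784 Pdgfra-positive iBAT cells, 75 were also Adipoq-positive, a group with high Scd1. Their part in the Scd1 values was not tested.

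Of the genes at 10 CPM or more, 0 of the set were past 1.5-fold in either direction in iWAT, beside 7.36% of all genes higher and 1.26% lower. In iBAT 0 were past it higher and 1 lower, beside 7.87% and 2.95%. That gene was Hmgcs1, at 81.2 against 124 CPM in iBAT (ratio 0.656, 0.638 to 0.675) and 134 against 131 CPM in iWAT. In iBAT 13 of 15 sterol genes were lower in cycling cells, Lss (0.677) and Hsd17b7 (0.690) among them, whereas Ebp and Acat2 were at 1.00 and 1.03. Tm7sf2, also among the 13, was at 7.83 against 11.2 CPM. It reached 10 CPM only in the non-cycling cells, so that the filter fixed its direction, and it is part of the arm's median. The share of all genes that were lower in cycling cells was not computed, and their median log2 ratio was -0.02. Insig1 was at 97.8 against 133 CPM in iBAT and 142 against 139 CPM in iWAT.

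Cells varied widely in both arms. After thinning to 10000 UMIs, Pdgfra-positive cells held a median of 11 sterol arm UMIs in iWAT (10th to 90th percentile, 5 to 24) and 9 in iBAT (3 to 23), with a variance over mean of 4.58 and 6.62, where counting alone gives 1. The fatty acid arm held a median of 18 (9 to 31) and 8 (4 to 17), with a variance over mean of 4.08 and 9.46. The iBAT value was 3.50 over the 23527 cells without an Adipoq UMI and 2.85 over all cells when Scd1 was left out. The regulators stood nearer to counting error, at 1.54 and 1.79.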

How the data were processed

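Single-cell transcriptomes of 2 libraries (iWAT and iBAT stromal vascular cultures, 1 library each) were used. The deposited values are unnormalized UMI counts, 1 matrix per library. The authors processed the reads on a commercial cloud platform, and their processing notes name the mm39 genome and Seurat 5.0.0. Pipeline version, annotation, strand setting and multi-mapping rule are not given in the sources used here. No barcode was below 5790 UMIs (iWAT) or 10532 UMIs (iBAT), which shows that empty wells had been removed.

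Cells with more than 200 and fewer than 7500 genes and under 30% mitochondrial UMIs were kept, 29744 of 29962 in iWAT and 28215 of 28636 in iBAT. Total kept counts were 501759241 and 791392741 UMIs. UMIs were summed over the cells of a group and scaled to 1000000 (CPM). Intervals for sums are exact Poisson and for ratios exact conditional binomial (Clopper-Pearson), at 95%, and cover counting error only. With 1 library per depot no test was run. Where cells were split by a gene or by cycling, each was thinned at random to 10000 UMIs, which left out 5588 iWAT cells and 0 iBAT cells. The Hmgcs1 split took the cells at or above the 90th percentile (3 UMIs) and at or below the 10th (0 UMIs). Because many cells share a count, the groups were larger than 10% of cells. The low group held 3902 of 10051 cells in iWAT and 11722 of 23784 in iBAT, and the high group 1774 and 3031. No doublet caller was run; cells positive for 1 marker only served as an alternative. Ratios and intervals were tested on simulated sums that held counting error only, so the spread between cells was not part of that test. Gene positions are from GENCODE on GRCm39 and promoter windows from RefSeq on GRCm38.p6. Python 3.11.15 with numpy 2.4.6, scipy 1.17.1 and pandas 2.3.3 was used.

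The members, the other pathway genes and the marker lists were chosen with earlier results of these data known. All 33 genes are given a level. Named in full are the 5 genes of an arm with the highest mean CPM, those at 10 CPM or more that differ 1.5-fold between libraries or 2-fold between cell groups, the other pathway genes past the same folds, and the 10 genes outside the lists with the highest ratio in the Hmgcs1 and Fasn splits, taking the smaller ratio of the libraries. Values of some of the other pathway genes are not reported here.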

Additional observations from a re-analysis of the deposited data

How the results depend on the processing

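No result that answers a comparison changed its direction under any alternative tried. Intervals here reflect counting error, which is narrow, so that small shifts also fall outside them. Of the alternative values for these results 54 moved and 24 stayed the same. Some shifts were large, above all for the fatty acid ratio of Adipoq-positive iBAT cells. For iBAT over iWAT, the sterol arm's median log2 ratio was -0.23 with median-of-ratios scaling, -0.21 with no filter on low genes, -0.13 in Pdgfra-positive cells and -0.10 with cells thinned to 5000 UMIs, and its summed ratio was 0.840 with the other scaling, 0.852 in Pdgfra-positive cells, 0.904 thinned and 0.866 without Msmo1. The fatty acid arm's median log2 ratio was -0.55 with the other scaling, -0.89 for genes at 50 CPM or more and -0.60 thinned, and its summed ratio 0.526, 0.498 and 0.565 (other scaling, Pdgfra-positive cells, thinned) and 0.645 without Scd2. The number of genes 1.5-fold or more higher in iWAT lay between 5 and 7.

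For marker groups over Pdgfra-positive cells, values are given for markers at 1 UMI, at 5 UMIs, for cells with 1 marker only, after thinning to 5000 UMIs and without the gene with the most UMIs, in that order where each moved. In Adipoq-positive iBAT cells the sterol ratio was 1.20, 1.47, 1.54, 1.28 and 1.37 (without Hsd17b7), and the fatty acid ratio 4.88, 18.05, 23.6, 19.5 and 1.83 (without Scd1). The fatty acid ratio thus rests on Scd1 and on how strictly the cells were chosen, with 324 cells at 1 UMI, 62 at 5 UMIs and 35 with 1 marker only. In Epcam-positive iWAT cells the sterol ratio was 0.898 at 1 UMI, 0.842 at 5 UMIs and 0.797 thinned, and the fatty acid ratio 0.758, 0.628, 0.643, 0.598 and 0.639 (without Scd2). In Sox10-positive iBAT cells the sterol ratio was 0.833, 0.672, 0.607 and 0.545 over the first 4 settings, and the fatty acid ratio was 0.948 at 1 UMI, 0.945 at 5 UMIs, 0.852 thinned and 0.853 without Scd2. In Ptprc-positive iBAT cells the sterol ratio was 0.636, 0.432, 0.407 and 0.4002, and the fatty acid ratio 0.493, 0.259, 0.228, 0.223 and 0.339 (without Scd2).

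The alternatives for the Hmgcs1 split were chosen after seeing the data. Thinned to 5000 UMIs, the median sterol ratio was 1.67 in iWAT and 2.23 in iBAT and the fatty acid ratio 1.56 in iBAT, which was 1.79 in non-cycling cells. Single genes did change direction. Dhcr7 in Sox10-positive iWAT cells was at 0.917 with 1 marker only. For iBAT over iWAT, the log2 ratio of Tm7sf2 was -0.26 in all cells and 0.12 in Pdgfra-positive cells, and that of Insig2 was -0.003 and 0.01. The causes were not tested.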
